A study of Mus musculus with 12 samples.

Results

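DNA transposons are mobile elements that move as DNA. A transposase, encoded by an intact copy, cuts the element out at its terminal inverted repeats and inserts it elsewhere, with no RNA copy in between. The copies in the mouse genome are old remnants that have lost this activity, and most belong to the hAT superfamily or to the Tc1/mariner superfamily (TcMar), which contains the pogo-like Tigger elements. Like other repeats they carry methylated CG sites in most tissues, and primordial germ cells (PGCs), the embryonic precursors of eggs and sperm, lose much of their CG methylation on the way to and within the gonad.

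The repeats in these data were listed by element name, by the stretch of that element's consensus sequence and by class. Each such entry is called a segment here. DNA transposons were the segments whose class starts with "DNA/" and which had a methylation level in all 12 libraries. This held for 830 of 1726 segments (48.1%), against 34707 of 61449 segments of all repeats (56.5%). A single library listed between 965 (ESC-PGCLC replicate 2) and 1619 (pESC replicate 1) DNA transposon segments. The 830 segments carried 149 element names and 14 class labels. They comprised 505 hAT-Charlie segments, 100 hAT-Tip100 segments, 125 TcMar-Tigger segments and 100 segments of 11 other classes, among them hAT-Ac with 23 and hAT-Blackjack with 22. Another 40 repeat segments labelled only DNA or DNA? had levels in all libraries but fell outside the rule. A segment covered between 23 and 1903 bases of its consensus, with a median of 166. The files gave neither the genome positions nor the number of copies and reads behind a segment, so the copies cannot be placed and the depth of each level is unknown.

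The assay was RRBS (reduced representation bisulfite sequencing), which reads CG-rich fragments cut by MspI after bisulfite has converted unmethylated cytosines. The 12 libraries formed 6 groups of 2, and all were labelled strain C57BL6. They were ESCs (female embryonic stem cells), pESCs (stem cells from parthenogenetic embryos), PGCs of embryonic day 9.5 (E9.5), PGCs of day 12.5 (E12.5), and PGC-like cells (PGCLCs) induced either from ESCs or from pESCs. Per the labels, both kinds of stem cell were first kept for 2 days with 1% knockout serum replacement, bFGF and 2 ng/ml Activin A to give epiblast-like cells. For the next 4 days they received BMP4 at 500 ng/ml with SCF (100 ng/ml), EGF (50 ng/ml) and LIF (1000 IU), which gave PGCLCs. The study's methods state a higher Activin A concentration than the labels. According to the study's methods, the stem cell lines came from Actin-GFP embryos, pESCs from oocytes activated with strontium, and PGCs from female embryos. PGCLCs were sorted as cells positive for both surface markers SSEA1 and CD61, and PGCs were enriched by both markers or by SSEA1 alone. Cell identity cannot be checked from methylation levels, and an intermediate level in a mixture of cells cannot be told apart from an intermediate level in every cell. The study calls its RRBS replicates biological, and the labels name no separate cultures or embryos for them, so p-values measure the spread between these libraries.

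ESC replicate 1 stood apart from its partner. Over the 830 segments its mean level was 44.6%, against 34.2% in ESC replicate 2, and it was the higher of the pair in 658 segments. A gap of at least 10 percentage points between replicates was present in 446 segments (53.7%) in ESCs, in 139 (16.7%) in pESCs and in 84 to 99 in the other groups. The main results that rest on the ESC libraries are therefore also given without each of them. The largest replicate gaps of the 4 family groups were 78.7% and 0% in the E9.5 PGC libraries for an Arthur1A segment (bases 53 to 171, hAT-Tip100), 58.6% and 0% in the ESC-PGCLC libraries for a Tigger1 segment (bases 216 to 1232), 60.2% and 10% in the pESC libraries for a MER20 segment (bases 1 to 158) and 76.1% and 27.7% in the ESC libraries for an OldhAT1 segment (bases 404 to 473, hAT-Ac).

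DNA transposons were most methylated in E9.5 PGCs and least methylated in E12.5 PGCs, ESCs and pESCs, with both kinds of PGCLC in between. The mean level over the 830 segments was 61.2% and 60.8% in the E9.5 PGC libraries and 37.8% and 38.3% in the E12.5 PGC libraries. It was 49.7% and 49.5% in the ESC-PGCLC libraries and 45.5% and 44.7% in the pESC-PGCLC libraries. The pESC libraries had 39.6% and 37.3%. The pairs of libraries of the 4 PGC and PGCLC groups did not overlap with each other, whereas the pESC and E12.5 PGC values lay inside the interval between the ESC replicates.

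TcMar-Tigger segments had the highest mean level of the 4 family groups in each of the 12 libraries, and the pooled segments of the 11 other classes had the lowest in each of them. This holds for the pool and not for each class in it. The E9.5 group means of these 11 classes ran from 4.92% in the single Kolobok segment to 70.4% in the 4 TcMar-Tc2 segments, above TcMar-Tigger. In E9.5 PGCs the TcMar-Tigger mean was 65.2% and 64.4%. The hAT-Charlie mean was 62.0% and 61.7%, the hAT-Tip100 mean 57.8% and 57.1%, and the mean of the other classes 55.8% and 55.5%. The same order held in E12.5 PGCs, with 39.2% and 40.2% for TcMar-Tigger, 38.7% and 38.8% for hAT-Charlie, 36.1% and 36.5% for hAT-Tip100 and 33.4% and 35.2% for the other classes. Within a library the highest and the lowest family mean were between 4.98 points (E12.5 PGC replicate 2) and 9.46 points (ESC-PGCLC replicate 1) apart. The segments of 1 family varied more than the family means did. The standard deviation (SD) over segments of the group mean level was 20.2 points in TcMar-Tigger and 21.1 points in hAT-Charlie in E9.5 PGCs, and 14.4 and 14.7 points in E12.5 PGCs.

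**Figure D1:**
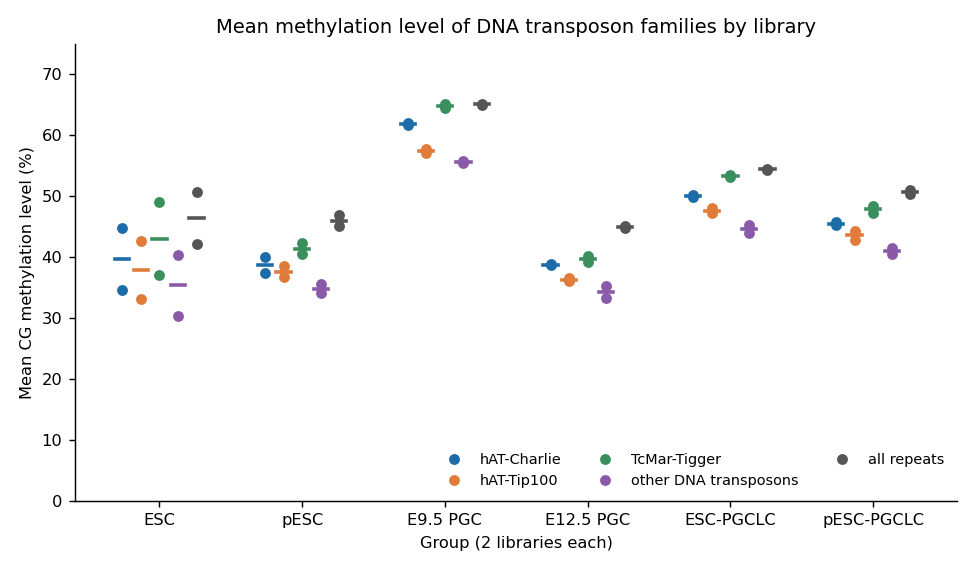
Mean CG methylation level in percent (vertical axis) of each DNA transposon family and of all repeats (colours) in the 6 groups (horizontal axis), where each point is 1 library and each short line the mean of 2. E9.5 PGCs lie highest, with 65.2% and 64.4% for TcMar-Tigger, and the ESC points of each family are spread by about 10 points.

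Set beside other repeats, DNA transposons lay below the mean of all repeats in every group, at 61.0% ± 0.28 (SD, n = 2) against 65.1% ± 0.11 in E9.5 PGCs and at 38.1% ± 0.39 against 44.9% ± 0.31 in E12.5 PGCs. Both values were nearer to those of SINEs (7176 segments, 61.7% ± 0.14 and 39.8% ± 0.32) than to those of L2 and MIR. The 1766 segments of L2 and MIR, repeats that likewise ceased to move long ago, had 57.2% ± 0.23 in E9.5 PGCs and 35.1% ± 0.31 in E12.5 PGCs. The E12.5 PGC mean of DNA transposons amounted to 62.4% of the E9.5 PGC mean. The same quotient was 62.6% for hAT-Charlie, 63.2% for hAT-Tip100, 61.2% for TcMar-Tigger and 61.6% for the other classes. It was 61.3% for L2 and MIR, 64.6% for SINEs, 67.9% for LTR elements, 71.7% for LINEs and 69.0% for all repeats. The differences between these sets of repeats were not tested.

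The first comparison asks how far DNA transposons lose methylation in PGCs between E9.5 and E12.5. Levels fell in most segments, by 22.97 points in the mean over all 830, and in no segment did the test call a rise. A segment was called when its adjusted p in limma was under 0.05 and its group means differed by at least 10 points. On this rule 667 of 830 DNA transposon segments (80.4%) were called lower at E12.5, against a background of 49.6% of all 137202 features tested and 84.8% of the tested repeat segments. By family, 415 of 505 hAT-Charlie segments (82.2%), 104 of 125 TcMar-Tigger segments (83.2%), 72 of 100 hAT-Tip100 segments and 76 of 100 segments of the other classes were called lower. The median change was a fall by 26.2 points in TcMar-Tigger, by 22.8 points in hAT-Charlie, by 20.8 points in hAT-Tip100 and by 20.7 points in the other classes. The count stayed between 616 and 671 when any 1 library of the fit was left out.

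The median of all features itself fell from E9.5 to E12.5, by 1.12 on the log2 odds scale. With each library centred on its own median, 272 segments were called lower and 34 higher, where 12.6% of all features were called lower and 33.7% higher. On this scale DNA transposons thus lay more often on the lower side, unlike the set of all features. The median of the repeat segments fell by 1.29. Centred on it, an alternative chosen after seeing the data, 148 segments were called lower and 68 higher, against 7.29% and 8.49% of the repeat segments.

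**Figure D2:**
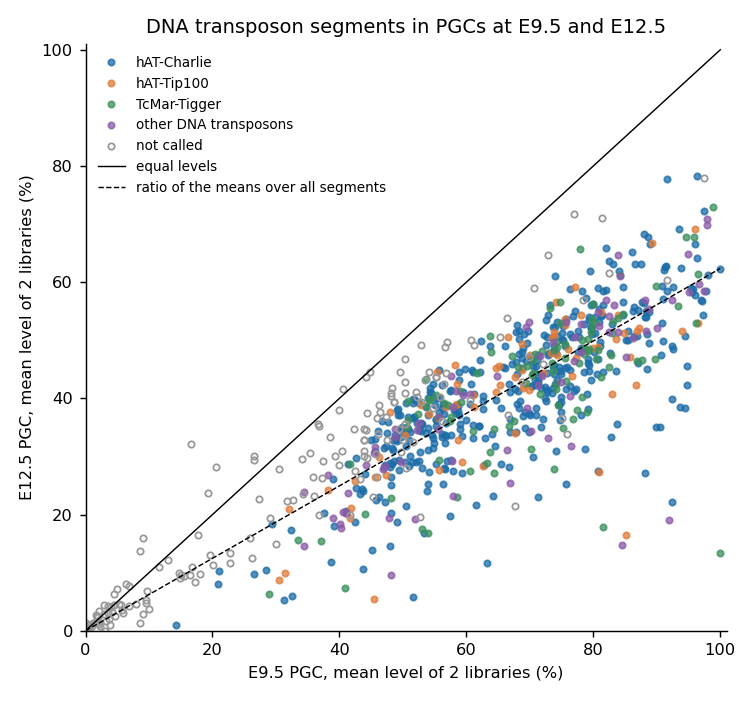
Each point is 1 of 830 DNA transposon segments, with its mean level in the 2 E9.5 PGC libraries on the horizontal axis and in the 2 E12.5 PGC libraries on the vertical axis, both in percent. Filled points are the 667 called lower, coloured by family, and most segments lie near the dashed line at 62.4% of the E9.5 level.

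The largest falls were in segments with high levels at E9.5, which a fall of that size requires. A segment of MER2, a short Tigger-derived element without a transposase of its own, covering consensus bases 1 to 306, had 100% in both E9.5 PGC libraries and 0% and 26.9% at E12.5 (adjusted p = 0.0013). A MER94 segment (bases 55 to 130, hAT-Blackjack) had 90.4% and 93.3% at E9.5 but 13.6% and 24.4% at E12.5 (adjusted p = 0.00015). A Charlie10 segment (bases 2706 to 2821, hAT-Charlie) had 89.7% and 95.2% at E9.5 but 14.3% and 30.0% at E12.5 (adjusted p = 0.0013). All 3 calls remained under each alternative setting. In each of these segments the PGCLC libraries lay between both stages, with MER94 at 62.3% and 78.6% in ESC-PGCLCs, and at 62.1% and 60.5% in pESC-PGCLCs.

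Falls of this size were the exception. Among the 770 segments with at least 20% at E9.5, the median segment kept 64.0% of its E9.5 level, and the segments between the lower and the upper quartile kept between 55.8% and 70.3%. The family medians were close, at 63.9% in hAT-Charlie, 64.7% in hAT-Tip100, 64.0% in TcMar-Tigger and 64.7% in the other classes. The loss was incomplete in most segments, since 109 of 830 were under 20% at E12.5 and 60 were already under 20% at E9.5. None was at 80% or more at E12.5, whereas 159 segments (19.2%) were at E9.5, 30 in ESC-PGCLCs, 14 in ESCs, 11 in pESCs and 7 in pESC-PGCLCs.

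Elements present as many segments shared the 2 highest groups when their segments were averaged, though their levels differed. The 19 names with at least 10 segments held 495 of the 830, and each of them had its highest group mean in E9.5 PGCs, followed by ESC-PGCLCs. The most frequent was MER5A, a short nonautonomous hAT-Charlie element with 85 segments, which had 56.8% at E9.5 and 35.4% at E12.5, with 61 segments called lower. MER20, another short hAT-Charlie element, had 63.5% and 40.9% over 57 segments, with 50 called lower. MER5B had 59.2% and 36.9% over 45 segments, with 37 called lower. MER3 had 68.0% and 44.4% over 16 segments. MER2 had 67.5% and 43.4% over 33 segments, with 29 called lower. Elements whose full consensus encodes a transposase, such as Charlie1 and Tigger1, were present as few segments. Charlie8 had 64.1% at E9.5 and 42.4% at E12.5 over 8 segments, all of them called lower. The single Charlie1 segment had 70.0% and 72.3% at E9.5 but 42.1% and 42.7% at E12.5. Tigger1 had 61.6% and 38.9% over 3 segments, with 2 called lower, and Zaphod3, of hAT-Tip100, had 63.3% and 40.5% over 3, all called lower. Kanga1, of Tc1/mariner, had 85.6% and 90.6% at E9.5 but 54.9% and 59.0% at E12.5 in its single segment. Of a list of 22 element names from both superfamilies, 17 were present with 341 segments, of which 281 were called lower and 0 higher at E12.5. This was near the share of all DNA transposon segments, 667 of 830 (80.4%), and of all repeats (84.8%), against 49.6% of all features.

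Elements named for rodents were spread over this order. RCHARR1, a Charlie-related repeat of rodents, had the highest E9.5 level of the 19 names, 74.4% over 36 segments. Its level at E12.5 was 47.1%, with 33 segments called lower. Tigger5b_Glire, a Tigger element named for the clade of rodents and rabbits, had 70.9% at E9.5 and 44.1% at E12.5 over 19 segments. URR1A and URR1B, short hAT-Charlie elements of rodents, had 65.3% and 64.2% at E9.5 over 32 and 24 segments. RMER30, another hAT-Charlie element with a rodent name, lay near the lower end with 56.7% at E9.5 over 12 segments. Tigger19a had the lowest levels, with 51.4% at E9.5 and 27.4% at E12.5 over 10 segments, and kept the smallest part of its E9.5 level among these names, 53.3%. MER58A kept the largest, 68.5%. Put together, the 111 segments with rodent names (URR1, RCHARR1, RMER30 and names ending in Rodent) had 68.1% ± 0.062 (SD, n = 2) at E9.5, the 24 with Glire in their name 71.7% ± 0.40, and the remaining 695 had 59.5% ± 0.33. At E12.5 the same sets had 43.3% ± 0.27, 44.8% ± 1.9 and 37.0% ± 0.44. This grouping was made after the values had been seen. Length went with level too, as segments over 200 bases had 65.8% at E9.5, those over 100 and up to 200 bases 59.1% and those up to 100 bases 56.7%, over 296, 371 and 163 segments. Whether age or length accounts for either difference was not tested. The families differed in length as well, with a median of 253 bases in TcMar-Tigger, 162 in hAT-Charlie, 163.5 in hAT-Tip100 and 137 in the other classes. Whether length accounts for the order of the family means was not tested.

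**Figure D3:**
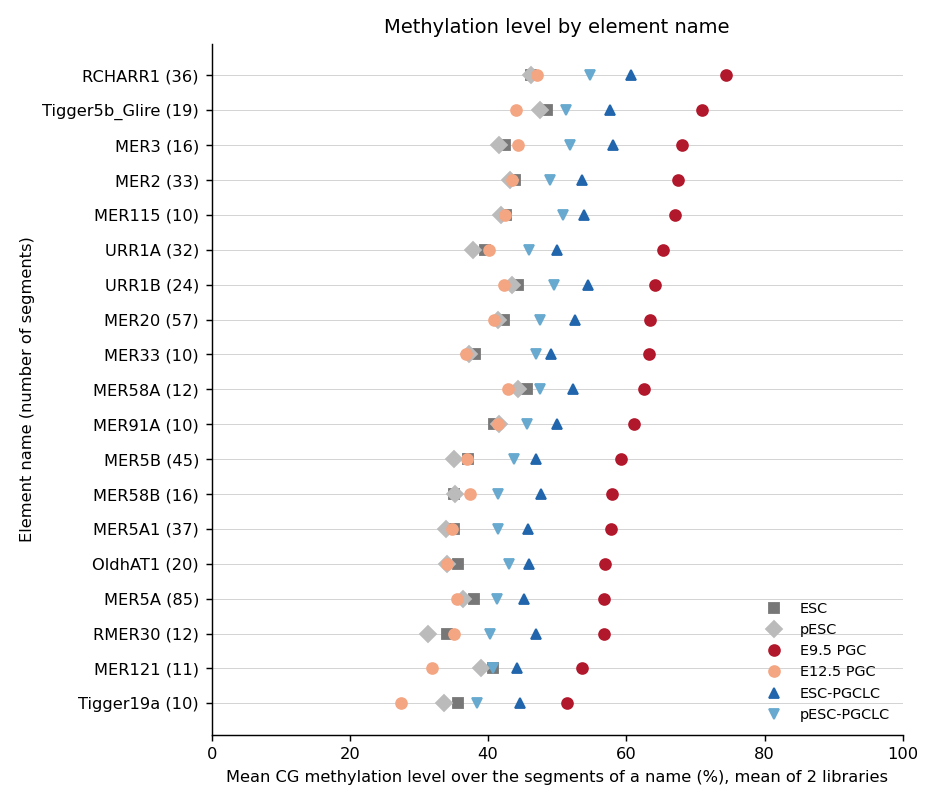
Mean level in percent (horizontal axis, mean of 2 libraries) over the segments of each of 19 element names (vertical axis, number of segments in brackets), with 1 symbol for each group. RCHARR1 is highest in E9.5 PGCs at 74.4% and Tigger19a lowest in both PGC stages, and both kinds of PGCLC lie between E9.5 and E12.5 PGCs for each name.

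Averages over a name hid a wide range. The E9.5 level of single MER5A segments ran from 0% to 100%, that of MER20 segments from 14.2% to 97.1% and that of URR1B segments from 2.9% to 97.8%. The highest mean over the 12 libraries within hAT-Charlie belonged to a Charlie12_Rodent segment (bases 2082 to 2297) at 85.3%. It had 96.6% and 98.1% at E9.5 but 72.5% and 71.9% at E12.5, and lay between 79.4% and 92.4% in the other groups. A Tigger5a_Glire segment (bases 192 to 296) was highest in TcMar-Tigger at 85.9%, a MamTip2b segment (bases 195 to 235) in hAT-Tip100 at 78.9%, and a MER53 segment (bases 18 to 191) among the other classes at 84.9%. At the other end 29 segments stayed under 10% in all 12 libraries, 11 of them hAT-Charlie, 7 hAT-Tip100, 4 TcMar-Tigger and 7 of other classes. A MER5A segment (bases 50 to 153) had at most 1.61% in any library and a MER33 segment (bases 239 to 322) at most 1.58%. An Arthur1B segment (bases 3 to 127, hAT-Tip100) had at most 0.90% and a Tigger16a segment (bases 810 to 887) at most 1.45%. Another 63 segments had at least 50% in all 12 libraries, of which 43 were hAT-Charlie, 7 hAT-Tip100, 4 TcMar-Tigger and 9 of other classes.

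Of the 11 other classes, 2 held a single segment. The segment of Kolobok, a superfamily apart from hAT and Tc1/mariner, was UCON29 (bases 6 to 100), which stayed between 1.61% and 10% in all libraries. The single TcMar-Pogo segment, MER132 (bases 41 to 173), had 8.11% and 8.33% in ESCs and 0.77% and 6.25% in pESCs. At E9.5 it had 39.1% and 42.1% and at E12.5 20.9% and 19.9%, a called fall (adjusted p = 0.0011). In the larger of these classes the E9.5 and E12.5 means were 59.6% and 35.5% for hAT-Ac and 58.8% and 35.7% for hAT-Blackjack. They were lower, at 53.5% and 32.1%, for the 17 segments labelled hAT? and, at 49.0% and 29.2%, for the 12 labelled hAT. The 9 TcMar-Mariner segments had 60.5% and 41.0%.

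The second question is where PGCLCs stand between both PGC stages. ESC-PGCLCs had a mean 11.43 points below E9.5 PGCs and 11.54 points above E12.5 PGCs. pESC-PGCLCs lay 15.94 points below E9.5 PGCs and 7.04 points above E12.5 PGCs. Between the E9.5 mean and the E12.5 mean, ESC-PGCLCs thus stood at 49.8% and pESC-PGCLCs at 69.4% of the distance, counted from E9.5. This is a position and not a course, since the ESCs and pESCs they came from had lower means, 39.4% and 38.5%. For all repeats the positions were 52.9% and 71.4%. By family the ESC-PGCLC value was 51.1% in hAT-Charlie, 46.4% in hAT-Tip100, 45.8% in TcMar-Tigger and 51.7% in the other classes. The pESC-PGCLC value was 70.7%, 65.7%, 67.5% and 68.4%. The order of E9.5 PGC, ESC-PGCLC, pESC-PGCLC and E12.5 PGC from high to low held by group mean in 547 of 830 segments (65.9%), against 45.1% of all features.

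Against E9.5 PGCs, 403 segments (48.6%) were called lower and 6 (0.72%) higher in ESC-PGCLCs, with backgrounds of 29.6% lower and 0.168% higher over all features. Other repeats were nearer, with 41.1% of all repeats, 46.5% of L2 and MIR and 53.7% of SINEs called lower. In pESC-PGCLCs 556 were called lower and 4 higher, with backgrounds of 40.2% and 0.127%. By family, the ESC-PGCLC falls covered 252 hAT-Charlie, 39 hAT-Tip100, 64 TcMar-Tigger and 48 other segments. The pESC-PGCLC falls covered 341, 63, 88 and 64. The median of all features fell by 0.66 and by 0.80 on the log2 odds scale in these comparisons. With libraries centred on it, ESC-PGCLCs had 83 segments called lower and 36 higher, against 4.44% and 17.1% of all features. pESC-PGCLCs had 159 lower and 23 higher, against 8.46% and 27.2%. Centred on the repeat median, the counts were 59 lower and 49 higher in ESC-PGCLCs, against 5.07% and 4.45% of the repeat segments, and 91 lower and 47 higher in pESC-PGCLCs, against 6.23% and 6.41%. In a fit of all 12 libraries the ESC-PGCLC count was 270.

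Some of the largest falls below E9.5 PGCs took PGCLCs below E12.5 PGCs as well. A Charlie12_Rodent segment (bases 72 to 179) had 90.7% and 96.8% at E9.5 but 66.3% and 58.5% at E12.5. It had 47.4% and 38.7% in ESC-PGCLCs (adjusted p = 0.0013 against E9.5), below E12.5 PGCs, and 48.0% and 52.4% in pESC-PGCLCs. A MER63A segment (bases 1 to 138, hAT-Blackjack) had 85.7% and 90.8% at E9.5, 52.7% and 50.6% at E12.5, 42.9% and 40.2% in ESC-PGCLCs, with 37.1% and 48.0% in pESC-PGCLCs (adjusted p = 0.00037 against E9.5). The fall of a MER5A segment (bases 73 to 189) in ESC-PGCLCs, from 63.8% and 49.3% to 0% and 10%, lost its call without E9.5 PGC replicate 1. That of MER2 (bases 1 to 306) in ESC-PGCLCs lost its call without either E9.5 PGC library or without ESC-PGCLC replicate 2, and in pESC-PGCLCs without pESC-PGCLC replicate 2.

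Of the segments above E9.5 PGCs, 4 of 6 in ESC-PGCLCs and all 4 in pESC-PGCLCs were hAT-Charlie, which held 505 of the 830 segments. In ESC-PGCLCs the rises made up 0.79% of hAT-Charlie, 1% of hAT-Tip100, 0.8% of TcMar-Tigger and 0% of the other segments. A MER20 segment (bases 78 to 217) had 57.5% and 46.7% in E9.5 PGCs and 85.0% and 76.9% in ESC-PGCLCs (adjusted p = 0.0036), but 57.9% and 53.5% in pESC-PGCLCs. A MER5A1 segment (bases 2 to 111) had 24.1% and 29.0% in E9.5 PGCs, 45.9% and 42.1% in ESC-PGCLCs, with 38.3% and 41.5% in pESC-PGCLCs, with adjusted p = 0.0032 and 0.0055.

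Against E12.5 PGCs, ESC-PGCLCs had 362 segments called higher and 6 lower, with backgrounds of 22.2% and 0.523%. The rises covered 218 hAT-Charlie, 40 hAT-Tip100, 67 TcMar-Tigger and 37 other segments, and the total of 368 calls was 167 in a fit of all 12 libraries. Centred on the library median, 127 were higher and 9 lower, against 4.6% and 1.37% of all features. Centred on the repeat median, 90 were higher and 34 lower, against 4.53% and 4.45% of the repeat segments. pESC-PGCLCs had 143 called higher and 2 lower, with backgrounds of 6.81% and 0.287%. The rises covered 82 hAT-Charlie, 18 hAT-Tip100, 27 TcMar-Tigger and 16 other segments. This second count was not stable. Of the 145 calls, the count was 4 without pESC-PGCLC replicate 1, 8 without its replicate 2, 11 without E12.5 PGC replicate 1, 34 without its replicate 2, 81 without either E9.5 PGC library, and 13 in a fit of all 12 libraries. Centred on the library median, it was 20 higher and 4 lower, against 0.555% and 0.273% of all features, and centred on the repeat median 23 higher and 5 lower, against 0.952% and 0.946% of the repeat segments. The mean difference of 7.04 points kept within 6.67 and 7.40 points when any of the 4 libraries was left out.

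Segments well above E12.5 PGCs in ESC-PGCLCs included the MER94 segment given above, a Zaphod4a segment and a MER45R segment. The Zaphod4a segment (bases 892 to 1055, hAT-Tip100) had 80.5% and 89.9% at E9.5, 16.2% and 16.7% at E12.5, 69.3% and 63.0% in ESC-PGCLCs (adjusted p = 0.0029 against E12.5), with 44.1% and 45.0% in pESC-PGCLCs. The MER45R segment (bases 1531 to 1572, hAT-Tip100) had 28.1% and 28.6% at E12.5 and 83.7% and 71.4% in ESC-PGCLCs (adjusted p = 0.0031), above its 66.8% and 58.5% at E9.5. A Tigger5b_Glire segment (bases 6 to 180) had 83.6% and 79.5% at E9.5 but 17.3% and 18.4% at E12.5, but 63.8% and 65.3% in ESC-PGCLCs, with 59.8% and 55.9% in pESC-PGCLCs (adjusted p = 0.0049 against E12.5). This call remained without any 1 library, whereas the pESC-PGCLC rise of MER94 was lost without any 1 of the 4 libraries compared.

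Lower levels in PGCLCs than in E12.5 PGCs were rare. A URR1A segment (bases 5 to 226) had 65.4% and 70.1% at E9.5 but 48.7% and 54.2% at E12.5, against 20.3% and 22.0% in ESC-PGCLCs (adjusted p = 0.0022 against E12.5), with 29.7% and 31.0% in pESC-PGCLCs. An X5a_DNA segment (bases 38 to 122, TcMar) had 28.1% and 25% at E9.5, 31.8% and 26.9% at E12.5, 11.02% and 16.1% in ESC-PGCLCs (adjusted p = 0.0070), with 8.62% and 8.0% in pESC-PGCLCs. For both segments the calls of pESC-PGCLCs against E12.5 PGCs (adjusted p = 0.016 and 0.012) were lost without single libraries, for URR1A without any 1 of the 4 libraries compared.

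The third comparison sets PGCLCs from pESCs, which have no paternal genome, against PGCLCs from ESCs. The mean level of DNA transposons was 4.50 points lower in pESC-PGCLCs, and neither pair of libraries overlapped the other in any family. The difference was 5.45 points in TcMar-Tigger, 4.54 in hAT-Charlie, 4.08 in hAT-Tip100 and 3.58 in the other classes. Other sets were lower in pESC-PGCLCs too, again without overlap of the libraries. Their differences were -4.32 points in L2 and MIR, -4.11 in LTR elements, -4.04 in SINEs, -3.36 in LINEs, -3.72 in all repeats and -2.14 in all features. In this comparison 3 of 830 segments (0.36%) were called, all lower in pESC-PGCLCs, against a background of 0.0503% of all features. A Tigger16b segment (bases 158 to 278) had 89.4% and 89.8% in ESC-PGCLCs, with 59.1% and 57.1% in pESC-PGCLCs (adjusted p = 0.014). A segment of Cheshire, a hAT-Charlie element (bases 30 to 1932), had 76.1% and 78.1% against 53.6% and 54.0% (adjusted p = 0.033). A MER45A segment (bases 4 to 178, hAT-Tip100) had 69.8% and 68.9% against 49.4% and 50.0% (adjusted p = 0.047). In these 3 segments the ESC-PGCLC libraries stood close to or above E9.5 PGCs, which had 90.6% and 88.8%, 74.9% and 73.2%, and 59.5% and 62.5%. No call was left without ESC-PGCLC replicate 2 or without either pESC-PGCLC library, and 7 without ESC-PGCLC replicate 1. The count was 30 with an offset of 0.1 on the log odds scale, 37 on untransformed levels, 1 in a fit of all 12 libraries and 1 with a replicate block.

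In the stem cells themselves the difference was not detectable. The mean over DNA transposons was 0.94 points lower in pESCs, at 38.5% ± 1.6 (SD, n = 2) against 39.4% ± 7.3 in ESCs, which is well inside the gap between the ESC replicates. It was 6.12 points lower without ESC replicate 2 and 4.23 points higher without ESC replicate 1. Of the segments 0 were called by limma, as were 0% of all 148012 features tested. Without pESC replicate 1 there were 4 calls, and without its replicate 2 there was 1. Across the 830 segments the group means of ESCs and pESCs followed each other closely (Pearson r = 0.973), whereas ESCs and E12.5 PGCs, with similar means, did so less (r = 0.627). Segments share their library and are not replicates, so these values are descriptions.

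The last comparison asks how DNA transposons change when stem cells become PGCLCs. Between ESCs and their PGCLCs the mean differed by 10.18 points, and between pESCs and theirs by 6.62 points, with the PGCLCs higher both times. The first difference depends on the ESC library used. Leaving out ESC replicate 1 gave 15.4 points, and leaving out replicate 2 gave 5.0 points. By family the difference was 10.4 and 6.86 points in hAT-Charlie, 9.75 and 5.96 points in hAT-Tip100, 10.3 and 6.48 points in TcMar-Tigger, and 9.25 and 6.2 points in the other classes. The ESC family differences ran from 14.3 to 16.3 points without ESC replicate 1 and from 4.2 to 5.34 points without ESC replicate 2.

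On single segments, 173 (20.8%) were called higher and 9 (1.08%) lower in ESC-PGCLCs than in ESCs, against backgrounds of 13.7% and 0.899% over all features. The share called higher was 14.2% of all repeats, 20.9% of L2 and MIR and 24.9% of SINEs. The 173 rises covered 110 hAT-Charlie, 23 hAT-Tip100, 25 TcMar-Tigger and 15 other segments. In pESC-PGCLCs against pESCs 113 (13.6%) were called higher and 6 (0.72%) lower, against backgrounds of 8.91% and 0.746%. The share called higher was 9.21% of all repeats, 13.8% of L2 and MIR and 15.5% of SINEs. By family the 113 rises covered 79, 10, 14 and 10 segments. The first count of 182 calls became 351 (344 higher and 7 lower) without ESC replicate 1, 184 (146 higher and 38 lower) without ESC replicate 2, 109 without ESC-PGCLC replicate 1 and 108 without its replicate 2. The second count of 119 calls became 199 without either ESC library, 76 without pESC replicate 1, 55 without pESC-PGCLC replicate 1 and 58 without its replicate 2. The median of all features rose by 1.17 and by 0.92 on the log2 odds scale, and that of the repeat segments by 0.39 and by 0.17, so the direction depended on the reference. Relative to the median of all features, 78 segments were called higher and 244 lower in ESC-PGCLCs, against 5.2% and 46.9% of all features. In pESC-PGCLCs 66 were higher and 204 lower, against 4.34% and 28.9%. Relative to the repeat median the rises were in the majority, with 124 higher and 30 lower in ESC-PGCLCs, against 9.9% and 4.16% of the repeat segments, and 101 higher and 20 lower in pESC-PGCLCs, against 8.35% and 1.7%.

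Segments with the largest rises had low levels in stem cells, which a rise of that size requires. An RCHARR1 segment (bases 5 to 498) had 3.82% and 5.71% in ESCs and 2.02% and 2.71% in pESCs. It had 74.3% and 71.4% in E9.5 PGCs, 61.7% and 67.6% in E12.5 PGCs, 75.9% and 79.9% in ESC-PGCLCs (adjusted p = 7.4e-05 against ESCs), with 61.6% and 58.1% in pESC-PGCLCs. A UCON38 segment (bases 132 to 362, hAT-Charlie) rose from 3.89% and 10.1% in ESCs to 77.6% and 66.7% in ESC-PGCLCs and from 2.10% and 4.97% in pESCs to 72.9% and 59.9% in pESC-PGCLCs, with adjusted p = 0.00083 and 0.00080. Its E12.5 PGC libraries had 30.4% and 42.1% and its E9.5 PGC libraries 74.5% and 75.1%. A Tigger5b_Glire segment (bases 15 to 111) rose from 7.81% and 17.3% in ESCs to 73.6% and 79.4%, and from 8.93% and 2.94% in pESCs to 63.6% and 65.1% (adjusted p = 0.0013 in both). A MER5B segment (bases 30 to 145) rose from 7.69% and 23.1% in pESCs to 77.8% and 93.3% in pESC-PGCLCs (adjusted p = 0.0027). The rises given with a p also passed on the centred scale and without any 1 library.

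Segments that fell on induction were few. A MER5A segment (bases 4 to 92) had 80.6% and 55.9% in ESCs and 79.6% and 62.8% in pESCs. It had 13.3% and 18.4% in ESC-PGCLCs (adjusted p = 0.0056), 18.5% and 19.4% in pESC-PGCLCs (adjusted p = 0.0091), and was at 4.26% and 0% in E9.5 PGCs and 1.43% and 0.96% in E12.5 PGCs. A URR1B segment (bases 1 to 222) followed the same course, with 55.5% and 45.2% in ESCs, 50.2% and 56.0% in pESCs, 24.5% and 28.7% in ESC-PGCLCs, with 27.1% and 27.6% in pESC-PGCLCs (adjusted p = 0.0086 against pESCs). Its PGC libraries had 4.67% and 1.19% at E9.5 but 3.17% and 2.67% at E12.5. A Tigger5b_Glire segment (bases 225 to 328) fell by 42.6 points in pESC-PGCLCs against pESCs (adjusted p = 0.00016), a call that remained without any 1 library, and its levels are given with the interaction. For the MER5A and URR1B segments the pESC-PGCLC fall was lost without single libraries, among them either pESC-PGCLC library. The MER5A and URR1B patterns are the reverse of the URR1A segment above, another rodent hAT-Charlie element, which had 11.2% and 7.03% in ESCs and 9.61% and 6.95% in pESCs.

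**Figure D4:**
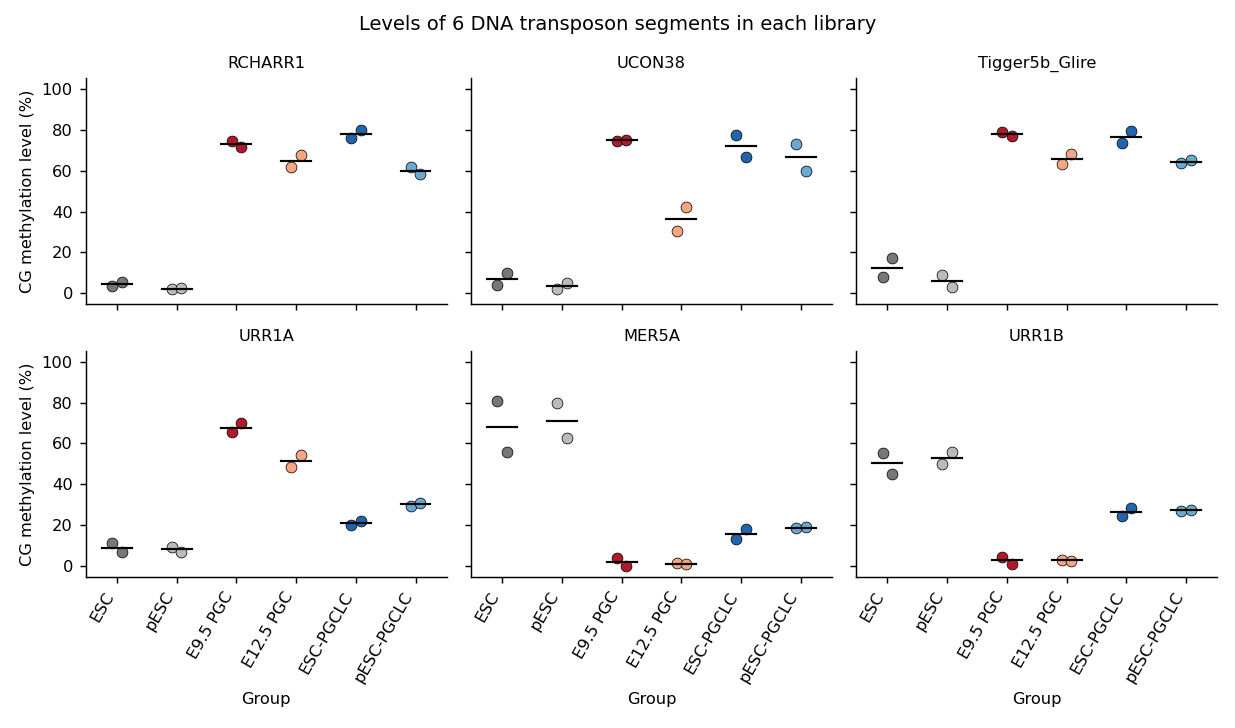
Level in percent (vertical axis) of 6 segments in the 6 groups (horizontal axis), where each point is 1 library and each line the mean of 2. RCHARR1, UCON38, Tigger5b_Glire and URR1A are under 18% in the 4 stem cell libraries and higher in all others, and MER5A and URR1B run the other way.

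Over all segments, the 4 stem cell libraries lay below all 8 PGC and PGCLC libraries in 159 of 830 (19.2%), against 17.2% of all features. These were 103 hAT-Charlie, 19 hAT-Tip100, 22 TcMar-Tigger and 15 other segments. The 4 stem cell libraries lay above all 8 others in 10 segments (1.2%), against 2.37% of all features, of which 6 were hAT-Charlie, 1 hAT-Tip100, 3 of other classes and 0 TcMar-Tigger. Besides the MER5A and URR1B segments given above, they included a MER5B segment (bases 96 to 175) with 92% and 76.2% in ESCs, 83.8% and 81.1% in pESCs, 47.5% and 47.9% at E9.5 but 36.0% and 35.7% at E12.5. It had 55.8% and 50.3% in ESC-PGCLCs (adjusted p = 0.020 against ESCs), a call lost without either ESC-PGCLC library.

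The change on induction was 3.56 points smaller in pESCs than in ESCs in the mean over DNA transposons, but this value turned to 1.61 points larger without ESC replicate 2. Without ESC replicate 1 the interaction was -8.74 points. A single segment passed the test of the difference itself, against a background of 0.0183% of all features. It was a Tigger5b_Glire segment (bases 225 to 328), which had 50.0% and 38.8% in ESCs and 14.3% and 16.7% in ESC-PGCLCs, against 43.0% and 42.3% in pESCs and 0% in both pESC-PGCLC libraries (adjusted p = 0.028). The call was absent with an offset of 0.1, on untransformed levels, with repeat segments alone, with libraries centred on the repeat median, in a fit of all 12 libraries, with a replicate block and without 6 of the 8 libraries taken 1 at a time.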

How the data were processed

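RRBS libraries of 12 samples were compared. Per the submitters' processing notes and the study's methods, the authors aligned reads to mm10 with Bismark 0.16.3 and Bowtie2, kept unique best alignments and treated identical reads as duplicates. The deposited level of each feature is a fraction from 0 to 1, the methylated share of CG calls, printed here in percent. Coverage minimum, copies pooled per repeat segment and read counts were not given in the sources used here, so no interval was computed and the planned form for levels without counts was used.

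Groups and replicate numbers came from the sample titles. Features listed in all libraries of a fit were compared on log2((level + 0.01) / (1 - level + 0.01)) with limma 3.58.1 in R 4.3.3, with Benjamini-Hochberg adjustment over all features of the fit. The pESC and ESC fit held 4 libraries, the PGC and PGCLC fit 8, and the fit of origin, induction and their interaction 8. Calls needed an adjusted p under 0.05 and group means at least 10 points apart. The step was tested on simulated levels. Family means were compared by library values without p, since 2 against 2 libraries cannot pass 0.05 by permutation.

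The members, family groups and listed names were chosen with earlier results of these data known. Segments named are the 2 highest and 2 lowest of each family by 12-library mean, the 3 largest called rises and falls of each comparison, listed elements, the largest replicate gap of each family, and classes with 1 segment, of which a selection is printed. Other values were computed with Python 3.11.15, pandas 2.3.3 and numpy 2.4.6 and drawn with matplotlib 3.10.9.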

Additional observations from a re-analysis of the deposited data

Results flagged for a closer look

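The Tigger5b_Glire segment at consensus bases 225 to 328 was singled out because its change on induction differed between cell origins by the test of the interaction. The change in pESCs minus that in ESCs was -13.7 points. Its PGC values were 0% and 33.3% at E9.5 but 24.2% and 40.0% at E12.5, so its replicates were far apart in E9.5 PGCs. No group has more than 2 libraries, so single outlying libraries were not tested for.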

How the results depend on the processing

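The depth behind a level is unknown and 2 libraries stand for each group, so a segment that was not called may still differ by an amount that could not be detected here. With libraries centred on their median the calls numbered 306 in E12.5 against E9.5 PGCs, 119 and 182 in PGCLCs of ESCs and pESCs against E9.5 PGCs, 136 and 24 against E12.5 PGCs, and 322 and 270 against their stem cells. Centred on the repeat median, chosen after seeing the data, they numbered 216 in E12.5 against E9.5 PGCs, 108 and 138 in PGCLCs of both kinds against E9.5 PGCs, 124 and 28 against E12.5 PGCs, and 0 for the interaction. A fit of all 12 libraries gave 270 calls for ESC-PGCLCs against E9.5 PGCs, 167 and 13 against E12.5 PGCs for ESC-PGCLCs and pESC-PGCLCs, and 1 between both kinds of PGCLC. Between both kinds of PGCLC an offset of 0.1 gave 30 and untransformed levels 37. The test of interaction had 0 calls with the offset of 0.1, on untransformed levels, in the fit of all 12 libraries and with repeat segments alone. The cause was not tested. Leaving out 1 library at a time gave from 0 to 4 calls for pESCs against ESCs, 4 to 100 for pESC-PGCLCs against E12.5 PGCs, 0 to 7 between both kinds of PGCLC, 108 to 351 for ESC-PGCLCs against ESCs, 55 to 199 for pESC-PGCLCs against pESCs and 0 to 4 for the interaction. The mean interaction ranged from -8.74 to 1.61 points. Replicate numbers of the labels name no shared culture or day. The replicate difference correlated across features at 0.518 between ESCs and pESCs and from -0.0602 to 0.183 between other groups. With a replicate block the calls were 1 between both kinds of PGCLC and 0 for the interaction, and the other counts kept within 1.5 times. The mean differences kept their sign under each other summary. With the median over segments they were -24.7 points for E12.5 against E9.5 PGCs, -13.3 and -17.7 for ESC-PGCLCs and pESC-PGCLCs against E9.5 PGCs, and 5.03 for pESC-PGCLCs against pESCs. With all segments of each library they were -12.6 for ESC-PGCLCs against E9.5 PGCs, 10.3 against E12.5 PGCs, and -3.66 between both kinds of PGCLC. With a mean over element names, added after seeing the data, they were -24.2 for E12.5 against E9.5 PGCs, and 12.9 and 8.29 for ESC-PGCLCs and pESC-PGCLCs against E12.5 PGCs. Of the family means, 22 alternatives moved by over 1 replicate SD and 194 did not. Among segments named for a call, no direction turned, and in 73 alternatives against 557 the call was lost, 55 of them with a library left out. A library left alone in its group is assumed to vary like the others.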
